A study of Mus musculus with 4 samples.

Results

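The Jak and Stat genes studied here are 9 mouse genes, the signal transducers Stat2, Stat3, Stat5a, Stat5b and Stat6 and the kinases Jak1, Jak2, Jak3 and Tyk2. They were chosen by name from 21851 protein-coding genes, and for each the N6-methyladenosine (m6A) peaks whose summit lay in one of its annotated exons were collected. The summit is the base of a peak where the signal is highest. The peaks come from m6A meRIP-seq, in which RNA is fragmented, fragments that carry m6A are pulled down with an antibody (the immunoprecipitate, IP), and captured and unselected (input) fragments are sequenced. The series has 4 samples, IP replicates 1 and 2 and input replicates 1 and 2, and the peak list of each IP replicate was analysed. All samples share one genotype and treatment: cells with the Ythdf2 CTL genotype of the study, Ythdf2 fl/fl without a Cre (the floxed allele encodes YTHDF2 joined to GFP), on a C57BL/6 background, untreated as far as the labels go. The labels give Kit+ foetal liver cells enriched on magnetic columns, total RNA for the IP and polyA RNA for the input, while the age of the embryos and any pooling of animals are not given in the sources used here.

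Jak kinases sit on the inner tails of cytokine receptors that have no kinase of their own. When a cytokine draws receptor chains together, the kinases phosphorylate each other, the receptor and Stat proteins, and the Stats pair up, enter the nucleus and activate genes. In blood-forming cells this relay carries the signals of erythropoietin, interferons and interleukins. m6A is a methyl mark that a nuclear enzyme complex places on adenosines, mostly in the context DRACH, of which GGAC followed by A, C or T is the best known form. In DRACH, the D stands for any base but C, the R for a purine and the H for any base but G. The mark is common near stop codons and in long exons, and the reader protein YTHDF2 binds it and speeds the decay of the transcript. The antibody used in this kind of assay also binds a related modified base next to the cap of many mRNAs, so a peak at the very 5′ end of a transcript cannot be assigned to either mark.

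Of the 9 genes, 4 had an exonic summit in both replicates, namely Stat2, Stat6, Jak1 and Jak2, and the other 5 (Stat3, Stat5a, Stat5b, Jak3 and Tyk2) had none in either. The count was 2 of 5 Stat genes and 2 of 4 kinases. Each replicate held 7 peaks in these genes, and all 7 of replicate 1 overlapped 7 of replicate 2 pair by pair. Of all peaks, 80.6% of 15635 in replicate 1 and 83.9% of 14872 in replicate 2 overlapped a peak of the other replicate. In 6 of the 7 pairs the summit was in the last exon of the transcript, and in the remaining pair, the stronger one of Stat6, it was in exon 1. No internal exon of any of the 9 genes held a summit.

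The sequences under 5 of the 7 peaks are shown first, because they give a candidate site near the summit of replicate 1. Each is 21 nt of the sense strand of GRCm38, read 5′ to 3′, with 10 nt on either side of the A that could be methylated. The first 3 show the GGAC nearest to that summit in capitals, although in Stat2 peak 2 another DRACH, TAACT, lies nearer, at 1 nt against 7 nt. They lie at chr10:128291333-128291353 (+ strand, coding sequence of Stat2), chr10:128292500-128292520 (+, 3′ UTR of Stat2) and chr19:29311822-29311842 (+, coding sequence of Jak2). The last 2, from peaks with no GGAC within 50 nt, show the nearest DRACH in capitals, a choice made after the values were seen, at chr4:101153269-101153289 (− strand, 3′ UTR of Jak1) and chr19:29312769-29312789 (+, 3′ UTR of Jak2).
Stat2 peak 1: atgcggatGGACtcttgggat
Stat2 peak 2: aataactgGGACaggggacag
Jak2 peak 1: caaatccgGGACagtatagct
Jak1 peak: taaaggtgTAACAtcttaaat
Jak2 peak 2: ctgggttgGAACAtggccaaa

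For contrast, the next 5 sequences show the GGAC nearest to the stop codon in each gene without a peak. They lie at chr11:100893285-100893683 (−, Stat3, across an exon junction), chr11:100883994-100884014 (+, Stat5a), chr11:100783117-100783137 (−, Stat5b), chr8:71688109-71688129 (+, Jak3) and chr9:21105020-21105040 (−, Tyk2). All are coding sequence except that of Tyk2, which is 3′ UTR. The A lies at −431, −54, −29, −26 and 21 nt from the first base of the stop codon, where negative values are upstream.
Stat3: gtggaaaaGGACatcagtggc
Stat5a: tgaacgctGGACtccatgctt
Stat5b: cggcccatGGACagtcagtgg
Jak3: ccccagctGGACgcgctgtgg
Tyk2: ggcatcagGGACggccccaca
In Stat3, Stat5a and Stat5b the GGAC is followed by A or T and so is a DRACH site, whereas in Jak3 and Tyk2 it is followed by G. The presence or absence of these letters is a description and does not show whether the adenosine is methylated.

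**Figure D1:**
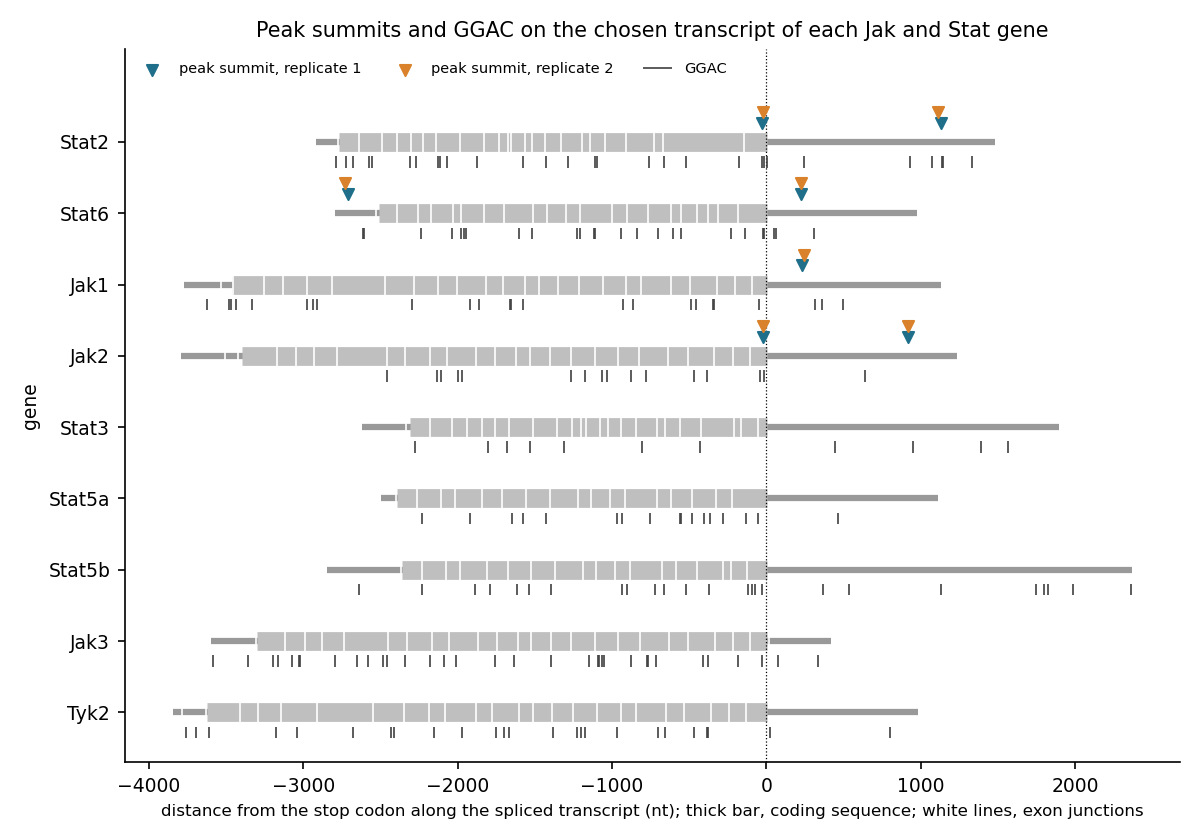
The chosen transcript of each gene is drawn with the distance from the stop codon in nt on the x axis and 1 gene per row. Thick bars are coding sequence, thin bars UTRs, white lines exon junctions, short ticks GGAC, and triangles the summits of replicates 1 and 2. Except for the pair in exon 1 of Stat6, the summits of the 4 genes with peaks lie between −27 and −22 nt from the stop codon or past it. The lower 5 genes have GGAC but no summit.

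The share of members with a peak was read against all genes. A summit in both replicates was found in 4 of 9 members (44.4%, exact Clopper-Pearson 95% interval 13.7 to 78.8, counting error only), against 6748 of 21851 protein-coding genes (30.9%). A summit in either replicate was found in the same 4 members and in 37.1% of protein-coding genes. The chosen transcripts of the members, those with the longest coding sequence, run from 3605 to 5213 nt. Among the 3707 protein-coding genes in this range of lengths, 42.8% had a summit in both replicates and 49.4% in either. The members' share is close to that of genes of like length. All protein-coding genes were counted, also those that these cells do not express, and input read counts per gene were not analysed here.

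Stat2 joins interferon receptors to the interferon response as part of a complex with Irf9. It lies on chromosome 10 (+ strand, 128270559 to 128292849) and had 2 peaks per replicate, both in exon 24 of 24, which is 1622 nt long. The first, at chr10:128291112-128291662 in replicate 1 and chr10:128291136-128291675 in replicate 2, had its summit in the coding sequence, at −27 and −22 nt from the stop codon. Fold enrichment is the ratio of IP signal to local background, on the scale the peak caller compared, with 1 added to each. On that scale, as computed from the deposited values, 1 control read counted as 0.874 in replicate 1. In replicate 2, 1 IP read counted as 0.952. All read numbers below are before this scaling. For this first peak the fold enrichment was 4.55 in replicate 1 and 5.79 in replicate 2 (mean 5.17 ± 0.877, SD, n = 2). The −log10 q was 24.8 and 29.7, where q is the p-value adjusted by the peak caller. The summits held 79 and 78 IP reads against backgrounds of 19 and 12 control reads, so the replicates differed mainly in the background. The A of a GGAC followed by T lay at −1 nt from the summit of replicate 1 and −6 nt from that of replicate 2, within the first sequence shown.

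The second Stat2 peak was in the 3′ UTR, at chr10:128292349-128292583 in replicate 1 and chr10:128292332-128292546 in replicate 2. Its summit was 1132 and 1109 nt past the stop codon, and its fold enrichment 3.15 and 3.21 (3.18 ± 0.042, SD, n = 2), with a −log10 q of 9.32 and 9.67. It had 49 and 53 IP reads over 17 and 15 control reads. By −log10 q it was the weakest of the 7 pairs, yet it recurred with nearly the same fold enrichment. A GGAC followed by A lay 7 and 30 nt past the summit.

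Stat6 is the Stat of interleukin-4 and interleukin-13 signalling. It lies on chromosome 10 (+, 127642986 to 127660957) and also had 2 peaks per replicate, one at each end of its transcript. The 5′ peak, at chr10:127642921-127643141 and chr10:127642927-127643170, had its summit in the 5′ UTR, in exon 1 of 22. The summit was 88 and 65 nt from the start of the transcript, at −197 and −220 nt from the start codon. Fold enrichment was 8.17 and 11.7 (9.92 ± 2.47, SD, n = 2), the highest of the 7 pairs in each replicate, with a −log10 q of 28.1 and 33.0. Of all peaks, 89.2% in replicate 1 and 96.4% in replicate 2 had a lower fold enrichment. The IP reads were alike, 50 and 48, over 6 and 3 control reads, and with so few control reads the ratio is uncertain.

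No GGAC and no DRACH lay within 50 nt of the 5′ summit of Stat6 in either replicate, and the nearest DRACH was at −76 and −53 nt from the summit. This pair is the only one of the 7 outside the last exon, and in both replicates it began upstream of the annotated start of the gene. The 3′ peak of Stat6, at chr10:127659760-127660515 and chr10:127659819-127660511, covered the stop codon and had its summit in the 3′ UTR, 223 and 224 nt past it, in exon 22 of 22. Its fold enrichment was 3.14 and 3.03 (3.08 ± 0.077, SD, n = 2), with a −log10 q of 22.1 and 21.1 from 115 and 123 IP reads over 41.2 and 38 control reads. At 756 and 693 bp it was the widest of the 7 pairs, and it held 6 GGAC in each replicate, the nearest 87 and 86 nt past the summit.

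Jak1 serves interferon receptors and the receptors that share the common gamma chain or gp130. It lies on chromosome 4 (−, 101152367 to 101265282) and had 1 peak per replicate, at chr4:101152895-101153420 and chr4:101152895-101153397. The summit was in the 3′ UTR in exon 25 of 25, 230 and 241 nt past the stop codon. Fold enrichment was 5.13 and 4.79 (4.96 ± 0.241, SD, n = 2). With a −log10 q of 48.0 and 42.9, from 136 and 138 IP reads over 29.4 and 26.6 control reads, it was the strongest Jak or Stat peak by q in each replicate. Of all peaks, 96.2% and 94.9% had a lower −log10 q. No GGAC lay within 50 nt of the summit, and the nearest was 86 and 75 nt past it, inside the peak. The DRACH shown above lay at −12 and −23 nt from the summit.

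Jak2 is the kinase of the erythropoietin and granulocyte-macrophage colony-stimulating factor receptors. It lies on chromosome 19 (+, 29251828 to 29313080) and had 2 peaks per replicate in exon 25 of 25, which is 1340 nt long. The first, at chr19:29311646-29312169 and chr19:29311643-29312174, had its summit in the coding sequence, at −23 and −22 nt from the stop codon. Its fold enrichment was 2.88 and 2.67 (2.78 ± 0.143, SD, n = 2), the lowest of the 7 pairs in each replicate. The summits held 125 and 131 IP reads against 49 and 46 control reads, and the −log10 q was 20.9 and 17.9. Thus the peak with the lowest ratio had more IP reads than the 5′ peak of Stat6, which had the highest. A GGAC followed by A lay 9 and 8 nt past the summit.

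The second Jak2 peak, at chr19:29312584-29312902 and chr19:29312574-29312901, was in the 3′ UTR, 917 and 918 nt past the stop codon and 317 and 316 nt before the end of the transcript. Fold enrichment was 6.02 in replicate 1 and 3.94 in replicate 2 (4.98 ± 1.47, SD, n = 2), and the −log10 q was 43.4 and 28.6. The IP reads were 105 and 115, over 19 and 27 control reads. Intervals from the counting error of the IP reads alone, with the background held fixed, were 4.94 to 7.28 in replicate 1 and 3.26 to 4.73 in replicate 2, and did not overlap. The log2 difference of replicate 2 minus replicate 1 was −0.61, and 82.7% of the 11524 pairs of peaks that overlap each other and no other peak differed by less. No GGAC lay in this peak. The DRACH shown above, GAACA, was 16 and 15 nt past the summit.

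In the 3 genes with 2 peaks, the peak with the higher fold enrichment had a different place in each. In Stat6 the 5′ peak had the higher fold enrichment than the 3′ peak, in Stat2 the peak at the stop codon had the higher one, and in Jak2 the peak in the distal 3′ UTR. The same order held in both replicates for each gene, also by −log10 q. By IP reads the order was the other way in Stat6, with 50 and 48 at the 5′ peak and 115 and 123 at the 3′ peak. It was also the other way in Jak2, with 125 and 131 at the first peak and 105 and 115 at the second. Stat2 and Jak2 had their first peak at nearly the same place, between −27 and −22 nt from the stop codon. Stat2 and Jak2 belong to different protein families.

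**Figure D2:**
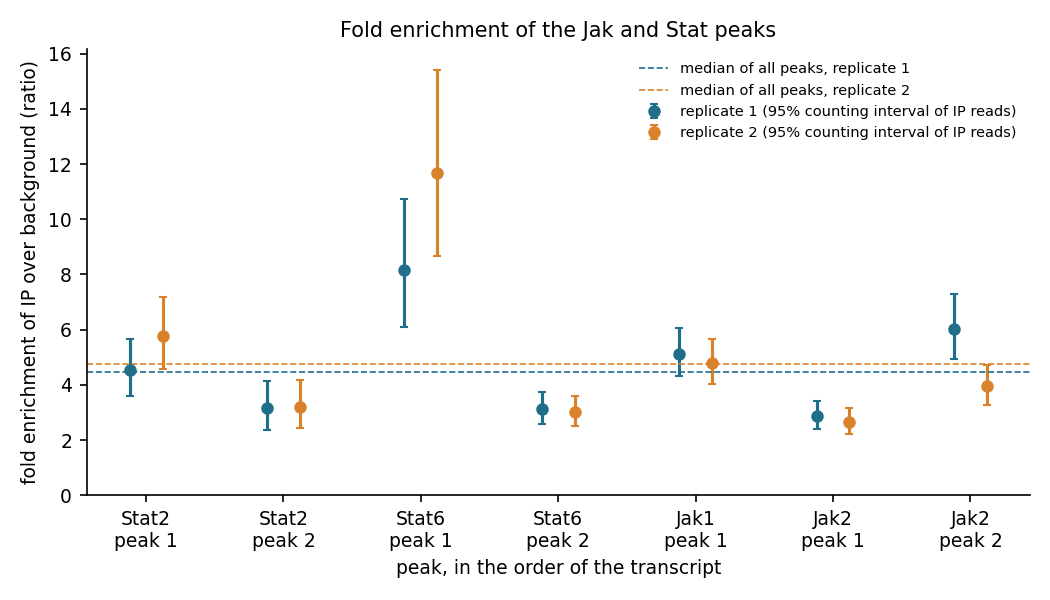
Fold enrichment (ratio, y axis) of the 7 Jak and Stat peaks (x axis) is plotted by replicate, with bars for the 95% counting interval of the IP reads at a fixed background and dashed lines for the median of all peaks. The 5′ peak of Stat6 stands highest, and the replicates' bars do not overlap for the second peak of Jak2.

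As a group, the Jak and Stat peaks had a median fold enrichment of 4.55 in replicate 1 and 3.94 in replicate 2, and all 15635 and 14872 peaks had medians of 4.47 and 4.76. Their median −log10 q was 24.8 and 28.6, against 15.0 and 14.8 for all peaks. The −log10 q depends on read number as well as on the ratio. The member summits held 49 to 136 IP reads in replicate 1 and 48 to 138 in replicate 2. The median over all peaks was 57 in each replicate. Fold enrichment was higher in replicate 2 for 3 of the 7 pairs and lower for 4. The log2 differences ran from −0.61 to 0.51, and the SD of this difference over all 11524 pairs was 0.47, and all 7 differences except that of the second Jak2 peak and that of the first Stat6 peak were smaller than it. The summits of a pair were 1 to 23 bp apart, against a median of 16 bp over all pairs.

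**Figure D3:**
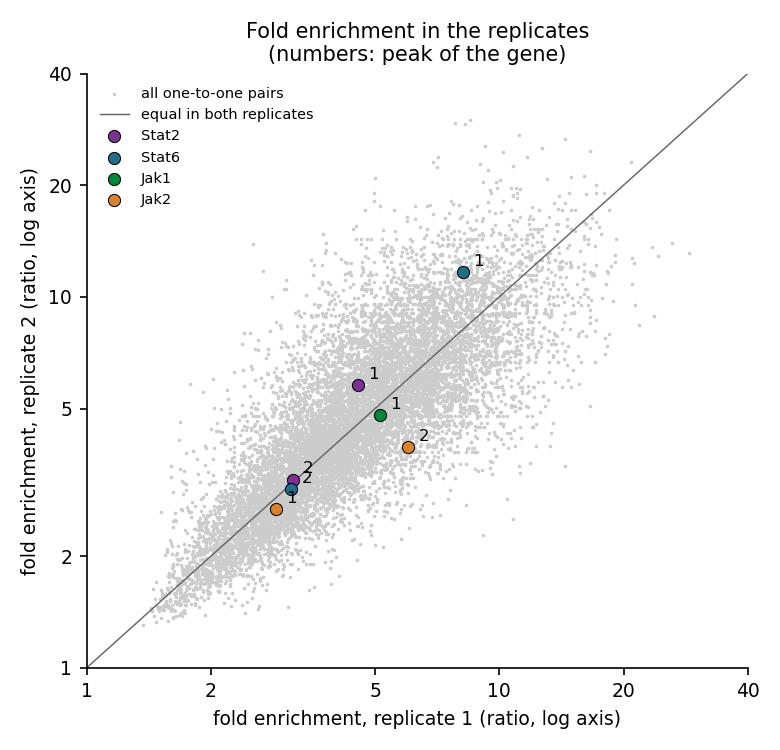
Fold enrichment in replicate 1 (x axis) is plotted against replicate 2 (y axis) on log axes for all 11524 pairs of peaks in grey and for the 7 Jak and Stat pairs in colour, with the number of the peak in its gene beside each. The second peak of Jak2 lies farthest below the line of equal values and the first peak of Stat6 farthest above it.

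By position, 12 of the 14 summits (both replicates) were in the last exon. Among all summits that could be placed on the chosen transcript of a single gene, 61.6% of 10829 in replicate 1 and 61.1% of 10464 in replicate 2 were in the last exon. Within 200 nt of the stop codon there were 4 of the 14 summits, those of the first peaks of Stat2 and Jak2, against 30.7% and 29.8% of placed summits. Of the 7 pairs, 4 were in the 3′ UTR, 2 in the coding sequence and 1 in the 5′ UTR. The last exons of Stat2, Stat6, Jak1 and Jak2 are 1622, 1163, 1224 and 1340 nt long, whereas their longest internal exons are 527, 207, 340 and 322 nt. In the GENCODE M21 basic set, all 14 summits were in exons of 1 gene only. This covers the base of the summit and not the rest of the peak.

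GGAC within 50 nt of the summit was found at 3 of 7 summits in each replicate, namely both Stat2 peaks and the first Jak2 peak, against 57.0% and 56.7% of placed summits. DRACH was found at 10 of the 14 summits, all but those of both Stat6 peaks, against 93.8% and 93.9% of placed summits. Both motifs were searched along the sense strand of the chosen transcript after splicing, with the A at most 50 nt from the summit, and a GGAC followed by A, C or T counts under both. With 7 peaks, which share genes, these counts are a description.

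Stat3, Stat5a and Stat5b lie next to each other on chromosome 11 and none had a peak. Stat3 is the main Stat of interleukin-6 and granulocyte colony-stimulating factor signalling, and Stat5a and Stat5b carry the signals of erythropoietin and interleukin-3 downstream of Jak2. No peak of either replicate touched any base of their gene bodies, introns included, from the lower end of Stat5b at 100780731 to the upper end of Stat3 at 100939540. The nearest peak before this block was in Ghdc, 11099 and 11264 bp from Stat5b, and the nearest after it in Cavin1, 19033 and 19037 bp from Stat3. Peaks were thus called on both sides of the block and in neither replicate within it.

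The motif counts of these genes were set beside those of the genes with peaks. Stat5b has the longest last exon of the 9 genes, 2492 nt, and the most GGAC in it, 12. It has 4 GGAC within 200 nt of the stop codon, as many as Stat2, which had a peak there. Stat5a has 2 such GGAC, as many as Jak2. Stat3 has none within that distance, 4 in a last exon of 1951 nt, and with 2.44 per kb the lowest density of GGAC in the transcript among the 9 genes. Counts of GGAC in the last exon overlapped, with 3 to 9 in the 4 genes with peaks and 2 to 12 in the 5 without. Counts of DRACH in the whole transcript overlapped less. They were 100 in Stat2, 97 in Stat6, 129 in Jak1 and 114 in Jak2. In the genes without a peak they were 106 in Stat3, 68 in Stat5a, 85 in Stat5b, 80 in Jak3 and 94 in Tyk2. Of these genes only Stat3 lay within the range of those with a peak, but Tyk2, at 94, was close to Stat6, at 97. Such counts also depend on transcript length and were not set beside those of all genes. In the last exon the DRACH counts were 27 to 37 in the genes with peaks and 6 to 48 in those without. The part of motif content in the presence of peaks was not tested.

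Stat5a and Stat5b are close copies, with 90.8% identical bases over 2291 aligned coding nt. Of all 50-nt words of the Stat5a transcript 17.7% also occur in a transcript of another gene, 608 of them in Stat5b and 22 in Stat3 on the opposite strand, where the 3′ ends of these 2 genes overlap. For Stat5b the share was 11.8%, all with Stat5a. Reads from the words that Stat5a and Stat5b share can come from either gene, and the part this plays in the absence of peaks was not tested. Where genes overlap, a summit in exons of both was counted for both. In the last exons the shared words were 22 of 1286 in Stat5a and 0 of 2443 in Stat5b.

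Jak3 pairs with the common gamma chain of the interleukin-2 and interleukin-7 receptors and is used mainly by lymphoid cells. It lies on chromosome 8 (+, 71676296 to 71690575) and had no peak in its gene body. Jak3 has the highest density of GGAC of the 9 genes, 8.46 per kb with 34 in the transcript, but the shortest last exon, 404 nt, with 2 GGAC. All 355 of the 50-nt words of that exon also occur in transcripts of Insl3, which is annotated over it. The nearest peaks past the gene, 1578 and 1476 bp away, had their summits in exons of B3gnt3.

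Tyk2 is the kinase of type I interferon, interleukin-10 and interleukin-12 receptors. It lies on chromosome 9 (−, 21104068 to 21131243), and no peak touched its gene body. Its last exon is 1114 nt long, much as in Stat6, with 2 GGAC. The nearest peak was 12002 and 11991 bp away on the lower side, where exons of Raver1 and 1700084C06Rik overlap, and 11901 and 11905 bp away on the upper side, in Cdc37. None of the words of its transcript is shared with another gene.

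Absence of a peak does not separate an unmethylated transcript from one with too few reads. The lowest fold enrichment that was called depended on the background. From 1 to below 2 control reads it was 3.64 in replicate 1 and 3.82 in replicate 2, from 10 to below 11 it was 2.49 and 2.25, and from 40 to below 44 it was 1.63 and 1.60. The background of the members' own peaks ran from 3 to 49 control reads. The background in the 5 genes without a peak was not analysed here, so no upper limit on their enrichment can be given.

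Defining markers were looked up as a check on the labelled cells, although a peak shows a marker only where its RNA is both present and methylated. Of 8 stem and progenitor markers 4 had a summit in both replicates (Cd34, Gata2, Runx1 and Spi1), whereas Kit, the gene by which the cells were selected, had none. Of 4 markers each for erythroid cells, hepatocytes, macrophages and lymphoid cells, 1 (Klf1), 1 (Apoa1), 1 (Csf1r) and 2 (Cd79a and Rag1) did. The share was 50% for the stem and progenitor and the lymphoid markers and 25% for each other list. Over all protein-coding genes it was 30.9%, so counts from lists this short cannot tell which cells were present. The part of other cells in the Jak and Stat peaks was not tested.

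The rest of the pathway was described from 5 lists with 79 genes, of which 51 (64.6%) had a summit in both replicates, against 30.9% of all protein-coding genes. The lists were drawn up with earlier results of these data known, and their genes were not matched to other genes on expression or transcript length. Among protein-coding genes with transcripts of 3605 to 5213 nt the share was 42.8%, and the median transcript of the lists ran from 2453 to 3866 nt. The counts of each list below are to be read beside these shares.

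Receptors come first in the relay. Of 37 cytokine receptor chains that use Jak kinases, 21 had a summit in both replicates. The 4 with the highest mean fold enrichment at the peak strongest by q were Il20rb (16.02 and 11.8), Il10ra (11.99 and 12.9), Il7r (8.57 and 10.9) and Il9r (9.07 and 9.55), where Il7r is the interleukin-7 receptor of lymphoid precursors. These high ratios stood over at most 4.2 control reads each. Epor, the erythropoietin receptor that signals through Jak2, was looked at after its values were seen and was at the other end, with a fold enrichment of 1.73 and 1.79 from 178 and 180 IP reads over 117 and 95 control reads.

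The SOCS proteins are induced by Stats and shut the relay down, by blocking the kinases or marking them and the receptors for degradation. Of 8 SOCS genes, 7 had a summit in both replicates and Socs1 had none in either. The fold enrichment was 12.8 and 10.97 in Socs3, 9.13 and 10.99 in Socs5, 6.83 and 9.77 in Cish and 3.04 and 11.1 in Socs7. The replicates differed most for Socs7, which had 18 and 20 IP reads over 6.0 and 0.80 control reads. In Socs3 the background was 1 control read in each replicate. Socs1 and Socs3 are the SOCS proteins best known to inhibit the kinases directly.

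Of 13 other negative regulators (phosphatases, ubiquitin ligases, adaptors and Pias proteins), 8 had a summit in both replicates. The ubiquitin ligase gene Cblb had 8.81 and 4.16, Pias2 had 6.03 and 6.16, Pias4 had 5.28 and 6.24, and the phosphatase gene Ptpn1 had 4.16 and 3.51. In Ptpn1 the strongest peak by q was not the same peak in the replicates.

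Of 9 interferon regulatory factors, 4 had a summit in both replicates, the same count as among the 9 Jak and Stat genes. They were Irf8 (4.37 and 14.8), Irf1 (4.23 and 8.59), Irf5 (4.63 and 4.66) and Irf9 (4.16 and 3.43), and the strongest peaks of Irf8 and of Irf9 differed between replicates. Both Stat2 and Irf9, which act in one complex, thus had peaks. Irf4 had a peak in replicate 2 only.

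Of 12 known Stat target genes, 11 had a summit in both replicates and Bcl6 had none. The highest mean values were those of Ccnd3 (9.24 and 7.53), Osm (5.56 and 7.31), Ccnd1 (4.28 and 8.58) and Id1 (6.27 and 6.40), which encode D-type cyclins, a cytokine and an inhibitor of DNA binding. The strongest peak of Id1 was not the same in the replicates.

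**Figure D4:**
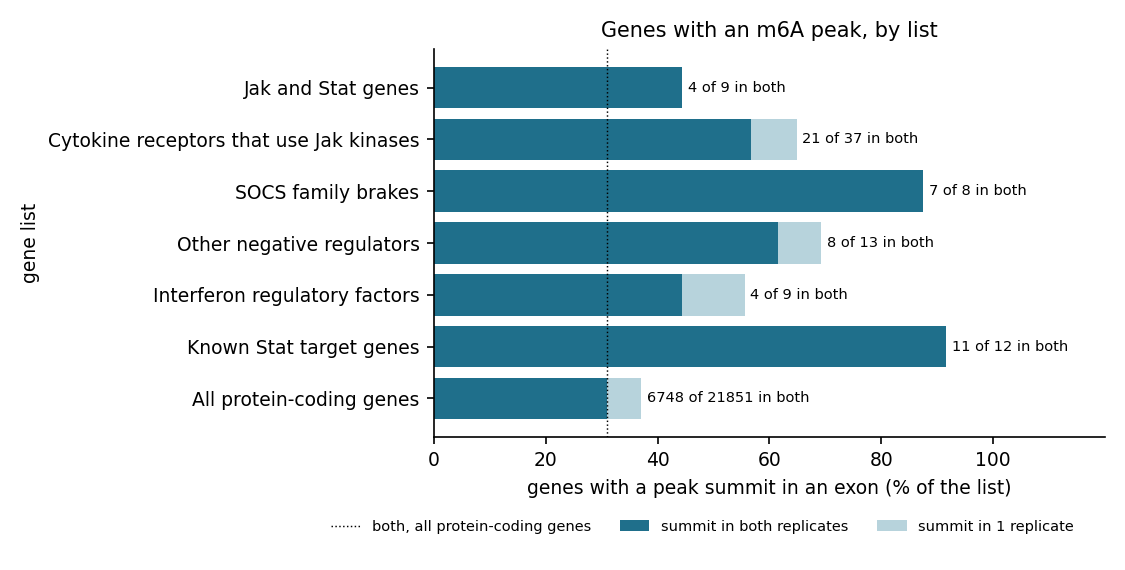
Bars give the percentage of each gene list (y axis) with a summit in an exon in both replicates (dark) or in 1 replicate (light), with the count in both beside each bar and a dotted line at the 30.9% of all protein-coding genes. The Jak and Stat genes, with 4 of 9, share the lowest bar among the 6 lists with the interferon regulatory factors, above the bar of all protein-coding genes.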

How the data were processed

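m6A meRIP-seq had been done by the authors on c-Kit-enriched Ythdf2 CTL cells (2 IP replicates with inputs). They aligned reads to GRCm38 with HISAT2 and called peaks for each replicate with MACS2 2.1.1.20160309 (nomodel). The control library and threshold are not given in the sources used here. The deposited fold enrichment is a ratio, and the deposited −log10 p-value and −log10 q-value belong to the summit. The deposited score is a multiple of −log10 q and was not used further.

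Exons were those of the GENCODE M21 basic set, with coordinates counted from 1. Positions refer to the transcript with the longest coding sequence. Peaks were shared when they overlapped by 1 bp or more. IP reads at a summit and the background there were computed from fold enrichment and p-value under the formulas of MACS2. These matched 100% of peaks within 0.001 in −log10 p. Values given as control reads are this background in units of 1 control read. They need not be the number of control reads at that base. In tests on simulated data the IP reads of 100% (unscaled IP) and 99.4% (scaled IP) of peaks were recovered. These figures do not cover the control reads. The simulated backgrounds were whole numbers of control reads, whereas some of those given here are fractions. Library totals are not known.

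The members and lists were chosen with earlier results of these data known. All members were named. Of each list, the up to 4 genes with the highest mean fold enrichment among those with a summit in both replicates were named, and lists of few genes by presence. No test between groups was possible with 1 group of IP samples. Sequences are those of GENCODE M21 transcripts on GRCm38. Python 3.11.15, numpy 2.4.6, pandas 2.3.3 and scipy 1.17.1 were used.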

Additional observations from a re-analysis of the deposited data

Results flagged for a closer look

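A peak just upstream of Jak2 lay in no annotated gene and so entered none of the counts above. It was found in both replicates, at chr19:29250723-29250948 and chr19:29250690-29251035, with the summit 1074 and 960 bp before the start of the gene. It had 7 IP reads over 1 control read in replicate 1 (fold enrichment 4.27) and 12 over 0.40 in replicate 2 (8.87). It is listed here as signal outside the exons that the counts use, and nothing about its origin was tested.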

How the results depend on the processing

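Stat2, Stat6, Jak1 and Jak2 were the members with a summit under 7 of 8 alternatives, counted in 1 replicate where the other was left out. Several of these alternatives could not change the result. The other members had no summit in either replicate, so leaving out a replicate had to give the same 4. A minimum −log10 q of 3 or 5 lay below the lowest value of the member peaks, 9.32. Keeping only summits in exons of 1 gene could remove none, as all 14 met that rule. With a minimum fold enrichment of 4, Jak2 was lost and 3 of 9 remained, because its second peak was at 3.94 in replicate 2. Under that minimum the protein-coding genes with a summit in both replicates fell from 6748 to 3685, and the shared Jak and Stat peaks from 14 to 6, since fewer peaks are left. The 51 list genes ranged from 36 to 54 over their alternatives. GGAC was found at 11 of 14 summits within 100 nt, at 5 within 20 nt, and DRACH at 10 within 50 nt, against 6 for GGAC within 50 nt. The median over the 7 pairs of the mean fold enrichment, 4.96, was 5.12 with nothing added to IP reads and background. Replicate 2 alone gave 3.94 and replicate 1 alone 4.55. The 12 summits in last exons or at stop codons were 12 under both alternatives. Of 36 alternative values of these summaries, including those that could not change, 31 stayed within 1.5 times or within the spread of the replicates. For single peaks 20 of 21 stayed within the SD of the replicates. Those that leave out a replicate had to, because each of 2 values lies within the SD of their mean. Only the values with nothing added could move, and that of the second Stat2 peak did, from 3.18 to 3.33. No paired analysis was possible because the input samples have no values here and no result comes from a test. Depth limits what can be said of genes without a peak.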
